A study of Mus musculus with 18 samples.

Results

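The contacts described here are the RNA polymerase II chromatin contacts of mouse erythroleukemia (MEL) cells that were listed both before and after induction with dimethyl sulfoxide (DMSO). A contact is a pair of genome regions, called vertices, joined by paired tags in chromatin interaction analysis by paired-end tag sequencing (ChIA-PET) with the 4H8 antibody against polymerase II. A contact was taken as kept when the same pair of vertices, in either order and on 1 chromosome, stood in the authors' lists of both days. Of 7548 contacts listed on either day, 1803 (23.9%) were in both lists. They made up 37.9% of the 4754 contacts of day 0 (Wilson 95% interval 36.6 to 39.3) and 39.2% of the 4597 contacts of day 5 (37.8 to 40.6). The other 2951 contacts were in the day 0 list alone and 2794 were in the day 5 list alone. These contacts were selected on a measured value, their being listed with at least 4 paired tags on each day, so their number and their tags are given as a description with no test.

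MEL is an established mouse erythroleukemia line, cultured from a commercial stock. The day 0 cells were untreated, and the day 5 cells had grown for 5 days with 2% DMSO, a treatment that induces hemoglobin. The labels give 2 biological replicates per day for ChIA-PET, PU.1 chromatin immunoprecipitation (ChIP-seq), DNase-seq and RNA-seq. ChIA-PET was deposited as 1 list per day with no list per replicate, so no difference between days in a contact could be tested.

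In the RNA libraries, 9 of 10 erythroid marker genes reached 1 FPKM (a fragment count scaled by transcript length and library size) in both day 0 libraries and 10 of 10 in both day 5 libraries. Their summed level was 1862 and 1302 FPKM in untreated cells, against 30174 and 25525 FPKM in treated cells. At most 1 of 6 myeloid markers, Cd68, reached 1 FPKM in any library, while Csf1r, Emr1, Lyz2 and Mpo were listed at 0 in all 4 libraries. None of 4 lymphoid and 3 fibroblast markers reached 1 FPKM. The samples are bulk cultures, so a change in every cell and a change in the share of induced cells cannot be told apart. The lists are on the mm9 build, whose genome and annotation were not used here, so contacts are given by position, without gene names or sequence.

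Polymerase II ChIA-PET captures pairs of DNA sites that lie close together in the nucleus at chromatin bound by the polymerase, among them promoters paired with distal enhancers and promoters paired with one another. PU.1 is an ETS-family transcription factor that drives myeloid and B-cell genes and, in erythroleukemia cells, holds back erythroid differentiation. DNase I cuts open chromatin, and a footprint is a short stretch inside an open site that is protected from cutting, often by a bound protein.

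The deposited score of a contact could be read as paired tags per kilobase. The sign of the score was dropped, and pairs between chromosomes were included. Multiplied by the summed width of both vertices in kilobases, the score was a whole number, to within 0.01, for 4776 of 4776 listed pairs of day 0 and 4618 of 4618 pairs of day 5. The smallest such number was 4 on both days. This reading comes from the values and is not stated by the labels. The whole numbers are called tags below. They compare the days for 1 contact directly, because a vertex has the same width on both days.

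Kept contacts carried more tags than contacts of a single day. Their median was 8 tags on day 0 (quartiles 6 and 13, highest 126) and 9 tags on day 5 (quartiles 6 and 13, highest 164). The median of contacts listed on day 0 alone was 5 tags, and that of contacts listed on day 5 alone was 6 tags. The 1803 kept contacts together held 19690 tags on day 0, which was 51.9% of the tags within chromosomes in that list. On day 5 they held 21364 tags, or 53.4%. The median deposited score per kilobase was 1.27 on day 0 and 1.28 on day 5, against 0.878 and 1.05 for contacts of a single day. High tag number alone did not place a contact in both lists: a contact of day 0 alone had up to 82 tags and a contact of day 5 alone up to 160.

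At the lower limit of 4 tags, 159 kept contacts on day 0 and 145 on day 5 stood at the limit itself, and 21 stood there on both days. Just outside, 894 contacts listed on day 0 alone and 746 listed on day 5 alone also had 4 tags. For these, the count on the other day is not known. It was anything from 0 to 3 if the limit of 4 tags, which was read from the values, was the only rule for listing.

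The share of contacts kept rose with their tags on either day. Of day 0 contacts with 4 tags, 15.1% were also listed on day 5, compared with 50.1% of those with 8 to 10 tags and 91.2% of those with 21 or more. Of day 5 contacts with 4 tags, 16.3% were also in the day 0 list, compared with 49.6% at 8 to 10 tags and 85.9% at 21 or more. Span, the distance between the centres of both vertices, went with the share kept in the day 0 list. Among day 0 contacts with 6 to 7 tags, 39.8% of those spanning up to 50 kb were kept (95% interval 35.9 to 43.8), against 19.9% of those spanning over 100 kb (16.0 to 24.4). At 11 to 20 tags the same shares were 78.2% (74.0 to 81.8) and 58.1% (49.1 to 66.7). Among day 5 contacts no such gap was seen: 35.2% and 35.4% at 6 to 7 tags, and 67.0% and 67.6% at 11 to 20 tags. Long day 0 contacts were thus lost from the list more often than short ones of the same tag number, while long and short day 5 contacts had been listed on day 0 about equally often. The difference between the lists in this respect was not tested. These intervals cover counting error only. Contacts share vertices and libraries, and the spread between cultures is not known.

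**Figure D1:**
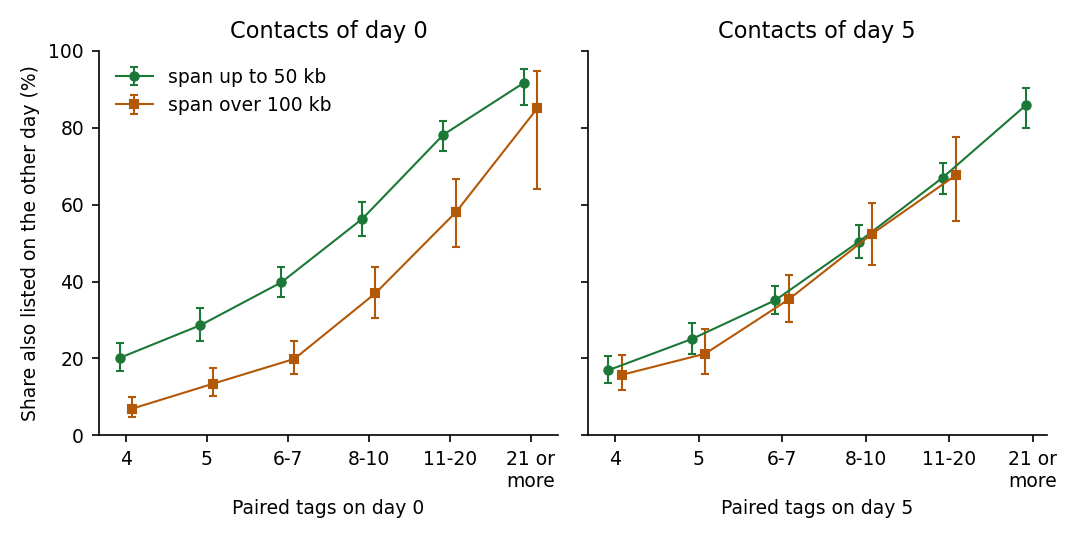
Share of contacts (%) that were also listed on the other day, by paired tags on day 0 (left) or day 5 (right), for spans up to 50 kb (circles) and over 100 kb (squares), with Wilson 95% intervals. In the day 0 list the long contacts lie below the short ones, for example 6.96% against 20.1% at 4 tags, whereas in the day 5 list the points lie together, and long day 5 contacts of 21 or more tags are not drawn because they were fewer than 20.

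Kept contacts were short. The median span was 33.7 kb (95% interval of the median 32.0 to 35.6; quartiles 17.95 and 68.9), against 59.5 kb (55.6 to 63.7) for contacts of day 0 alone and 41.6 kb (39.6 to 43.8) for contacts of day 5 alone. Spans ran from 6.45 to 1688 kb. Over 100 kb lay 297 kept contacts (16.5%), against 37.2% of those of day 0 alone and 21.5% of those of day 5 alone. Over 500 kb lay 23 kept contacts (1.28%), against 5.18% and 2.04%. At matched tags the order of kept and day 0 alone was the same. With 4 to 5 tags on day 0 the medians were 38.6 kb kept and 66.9 kb for day 0 alone, and with 11 or more tags they were 30.6 and 40.4 kb. Against day 5 alone the medians were close at matched tags, 45.1 and 47.6 kb at 4 to 5 tags and 27.4 and 28.2 kb at 11 or more.

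**Figure D2:**
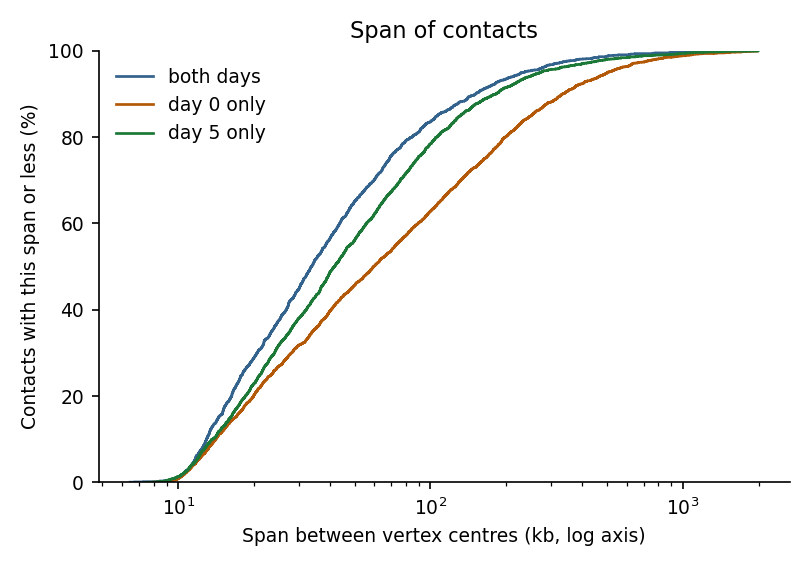
Cumulative share of contacts (%) by span (kb, log axis) for contacts listed on both days, on day 0 alone and on day 5 alone. The curve of kept contacts lies to the left, with a median of 33.7 kb, and that of day 0 alone lies farthest to the right, with 37.2% of contacts over 100 kb.

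Within the kept set, tags moved both ways between the days. They were higher on day 5 at 855 contacts, lower at 774 and equal at 174. The median log2 ratio of day 5 to day 0 tags was 0, with quartiles of -0.49 and 0.58. Tags rose by at least 2-fold at 232 contacts (12.8% of the 1807 pairs in both lists, counting 4 pairs between chromosomes) and fell by at least 2-fold at 195 (10.8%). Spearman's rho between the tags of the 2 days was 0.451 across the 1803 contacts, which share libraries and vertices. The list totals were close, with day 5 holding 51.3% of the tags of both lists, and scaling to these totals left 47.4% of kept contacts with more tags on day 5. By rank within each list, 42.2% of kept contacts stood higher on day 5.

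**Figure D3:**
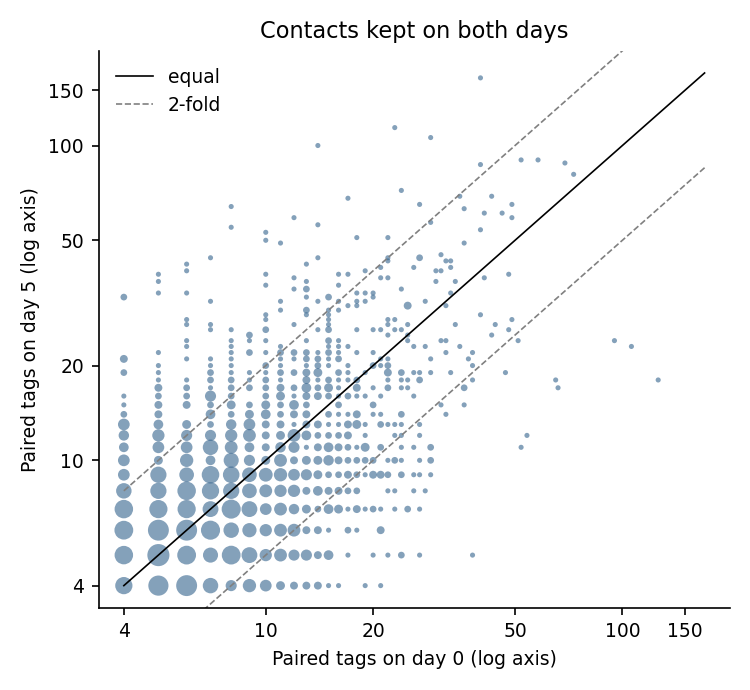
Paired tags of the 1803 kept contacts on day 0 and day 5 (both log axes); a point's area grows with the number of contacts at that pair of values, the solid line marks equality and the dashed lines a 2-fold difference. Most contacts hold 4 to 13 tags on both days and scatter around equality, and a few stand far off, such as the contact with 126 tags on day 0 and 18 on day 5.

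Short kept contacts gained tags somewhat more often than long ones. The share with more tags on day 5 was 49.8% of 506 contacts spanning 10 to 20 kb and 51.2% of 651 spanning 20 to 50 kb. It was 43.2% of 333 contacts at 50 to 100 kb, 40.2% of 179 at 100 to 200 kb, 37.9% of 95 at 200 to 500 kb and 30.4% of 23 above 500 kb. Spearman's rho between span and the log2 tag ratio was -0.083, a weak relation that is no finding by itself.

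The largest rises in score were 3 short contacts. On chromosome 3 the vertices chr3:103593202-103597067 and chr3:103612135-103614465, 18.2 kb apart, had 14 tags on day 0 and 100 on day 5. Of their tags, 87.7% came from day 5 (exact 95% binomial interval 80.3 to 93.1). The interval covers counting error only and does not allow for the choice of this contact as an extreme. A contact of chromosome 7 between chr7:16879423-16883292 and chr7:16893697-16900170 had 40 and 164 tags, the highest day 5 value of the set. The third, between chr8:108324591-108326088 and chr8:108344620-108346242, had 7 and 44 tags. PU.1 at these ends did not follow 1 pattern. On chromosome 3 a peak of the merged PU.1 lists was present on both days at the first end, with fold enrichments of 9.06 and 12.6 on day 0 and 6.36 and 11.5 on day 5. On chromosome 8 neither end had a PU.1 peak in any of the 4 libraries. The 6 ends of these contacts, picked as extremes, held more footprints on day 5, as did 52.0% of all kept ends with a footprint, from 3 and 5 at the first end on chromosome 8 to 17 and 22 at the second end on chromosome 7.

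The largest falls were of like span. The vertices chr4:116860657-116865032 and chr4:116874155-116875980, 12.2 kb apart and with no other kept contact, had 126 tags on day 0 and 18 on day 5. Of these tags, 12.5% came from day 5 (7.58 to 19.0, an interval with the same limits). On chromosome 1, chr1:72288900-72291735 and chr1:72300267-72303780 had 95 and 24 tags. On chromosome 3, chr3:96022507-96027436 and chr3:96039838-96042563 had 106 and 23 tags. Footprints were fewer on day 5 at these 6 ends, as at 33.2% of all kept ends with a footprint: for example, the second end on chromosome 4 had 15 on day 0 and 8 on day 5, the second end on chromosome 1 had 23 and 10, and the second end on chromosome 3 had 22 and 8.

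The strongest contact on both days, by the lower of its 2 scores, joined chr1:180247213-180252398 and chr1:180265210-180269168 over 17.4 kb, with 73 tags on day 0 and 81 on day 5 (scores of 7.98 and 8.86 per kb). It was followed by chr11:87549229-87551598 with chr11:87561521-87566191, which had 49 and 65 tags. The second end of this pair held PU.1 in all 4 libraries, at fold enrichments of 37.6 and 29.7 before treatment, against 17.8 and 20.0 after it. The third and the fifth share an end on chromosome 19, chr19:44366675-44370823, which met the neighbouring vertices chr19:44320042-44321347 and chr19:44321558-44324309. The first of these pairs had 34 and 37 tags and the second had 41 and 38. The fourth, chr15:96528239-96531702 with chr15:96539515-96541806, had 33 and 43 tags. All 5 changed by less than 2-fold, but ranking by the lower of 2 scores favours contacts with like scores on both days.

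The longest kept contact, 1688 kb on chromosome 3 between chr3:142543173-142546766 and chr3:144231502-144234689, sat at the limit of 4 tags on both days. The next in length both started at chr17:34136660-34137746. They reached chr17:35515816-35517526 over 1379 kb with 4 and 8 tags, and chr17:35399107-35400266 over 1262 kb with 8 and 18 tags. The shortest contact, 6.45 kb between centres, joined the wide neighbours chr5:123582076-123588814 and chr5:123588998-123594784 with 11 and 17 tags. The next in shortness had 4 and 6 tags on chromosome 3 (chr3:96357258-96358257 with chr3:96359898-96369002) and 4 and 13 tags on chromosome 10 (chr10:80391211-80400091 with chr10:80401771-80404099).

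The kept contacts ended at 2411 of the 130283 vertices. Of these ends, 1734 (71.9%) had 1 kept contact, 411 had 2 and 266 had 3 or more. The contacts fell into 789 connected groups, of which 480 were a single contact. There were 175 closed triangles, in which 3 vertices all met each other on both days, and 376 contacts belonged to at least 1 triangle. At 776 ends the kept contacts were all the contacts that either list held, whereas 1158 ends had further contacts on day 0 and 1062 on day 5.

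The largest group lay on chromosome 3 between positions 94640490 and 96533963. It had 58 ends and 75 contacts, with 1031 tags on day 0 and 841 on day 5. A group on chromosome 19 from 29174597 to 30206995 had 22 ends and 35 contacts, whose tags went from 455 to 355. A group on chromosome 9 from 20672771 to 21070791 had 22 ends and 31 contacts and held 269 and 283 tags. By chromosome, 11 held the most kept contacts (241), followed by 19 with 158, 5 with 139 and 3 with 138. These chromosomes also had many contacts in all. The share of their day 0 contacts that was kept, 38.7%, 40.1%, 38.2% and 40.1%, was near the 37.9% of the whole day 0 list. Of their day 5 contacts, 42.8%, 47.9%, 42.0% and 48.1% were kept, against 39.2% of the whole day 5 list. The Wilson intervals of the day 5 shares lay above that value for chromosome 19 (42.5 to 53.3) and chromosome 3 (42.4 to 53.9). The same held for chromosome 13 (42.1 to 59.5), which has fewer kept contacts. Those of chromosome 2 (23.4 to 34.2) and chromosome 9 (27.3 to 37.4) lay below it. These intervals treat contacts as independent, although 75 of the 138 on chromosome 3 and 35 of the 158 on chromosome 19 form linked groups. Chromosomes 11, 19, 5 and 3 were picked for their many kept contacts. No chromosome's share was tested, so the intervals do not show that any chromosome differs from the whole list.

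The vertex with the most kept contacts, chr3:96359898-96369002, had 16, out of 28 contacts on day 0 and 19 on day 5. Tags were higher on day 5 at 9 of them and lower at 6, and their sum was 248 on day 0 and 291 on day 5. Its PU.1 fold enrichment was 26.1 and 34.2 before treatment, against 5.42 and 9.39 after it. The second vertex, chr19:29322812-29329588, had 14 kept contacts whose tags summed to 166 and 150. The third, chr3:95732020-95736530, had 12 kept contacts, of which 10 had fewer tags on day 5, with sums of 211 and 106. These vertices were wide, at 9105, 6777 and 4511 bases, and width and the number of kept contacts went together across all ends (Spearman's rho 0.257, n = 2411).

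Vertex width touches every comparison of ends that follows. The vertices were made from DNase sites and ChIP-seq peaks, per the series' design text, so that an open site is expected at a vertex by construction. Kept ends had a median width of 3085 bases, against 2368 for ends of contacts of day 0 alone, 2075.5 for ends of day 5 alone and 1000 for all vertices. Here an end of day 0 alone or day 5 alone is a vertex with no kept contact and contacts on that day only. A further 598 vertices had contacts on both days but none to the same partner; they are called partner-changing ends, and their median width was 2869.5 bases. Like kept ends, they were in contact on both days. Values within width classes are given for that reason. Shares set against all vertices are not matched for width unless a width class is named.

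Fewer kept ends held a PU.1 peak on day 5 than on day 0. Of the 2411 ends, 58.0% and 72.1% overlapped a peak in the libraries of untreated cells, compared with 35.8% and 47.6% in those of treated cells. Over all vertices the shares were 15.1% and 19.4% in untreated cells, against 5.78% and 9.42% in treated cells, a larger fall in proportion. The means were 65.1% ± 9.94 (SD, n = 2) and 41.7% ± 8.39 (SD, n = 2). The groups did not overlap, and the exact two-sided permutation p was 0.333, the smallest that 2 against 2 libraries allow. The lists differed in length: those of day 0 held 34590 and 46077 peaks, those of day 5 held 10714 and 18614. When each library was held to its 10714 peaks with the lowest p, the order turned: 24.7% and 26.2% of kept ends had a peak on day 0 and 35.8% and 33.6% on day 5. Over all vertices these shares were 6.18% and 6.48% before treatment, compared with 5.78% and 6.30% after it. The turn was not particular to kept ends. The partner-changing ends had 21.4% and 22.7% before treatment, then 30.3% and 30.8%, the ends of day 0 alone 18.2% and 19.8%, then 23.6% and 22.4%, and the ends of day 5 alone 17.8% and 19.1%, then 23.9% and 23.7%. The share with a peak also depended on how much overlap was asked for: with at least 250 bases it was 37.6% and 44.3% before treatment, against 3.73% and 7.92% after it. Day 5 peaks were narrow, with median widths of 141 and 145 bases, compared with 247 and 223 bases for day 0.

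With all peaks, PU.1 shares at the partner-changing ends were close to those at kept ends, at 54.3% and 70.7% on day 0 and at 30.3% and 46.3% on day 5. Shares were lower at vertices in contact on a single day. The ends of day 0 alone had 44.7% and 56.7% on day 0 and 23.6% and 33.6% on day 5, and the ends of day 5 alone had 43.6% and 57.0%, then 23.9% and 35.2%. Within width classes the gap was smaller and did not hold throughout. Among vertices of 1 to 2 kb, a day 0 replicate 1 peak was at 39.3% of 382 kept ends, 30.4% of ends of day 0 alone and 32.0% of ends of day 5 alone. Among those of 3 to 4 kb the values were 60.4%, 52.6% and 62.2%. Of all vertices, such a peak was at 11.8% of those of 1 to 2 kb and 52.4% of those of 3 to 4 kb. At 4 kb and more it was at 68.3% of all vertices and 73.2% of kept ends. These classes were not compared by a test.

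**Figure D4:**
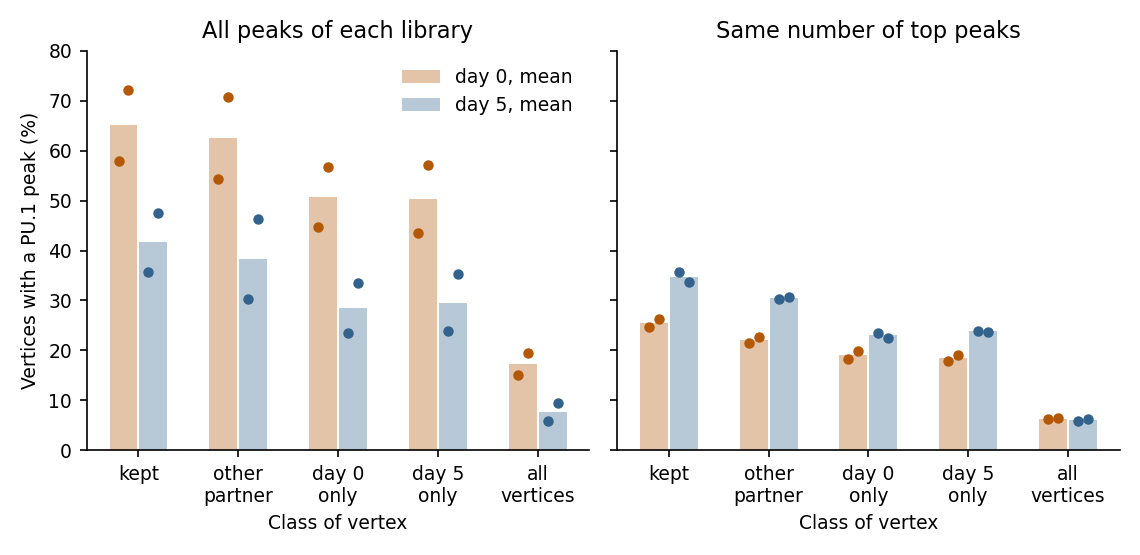
Share of vertices (%) with a PU.1 peak for ends of kept contacts, partner-changing ends, ends of day 0 alone or day 5 alone, and all vertices; bars are means and points the 2 libraries of each day. On the left, with every peak of each list, day 5 lies below day 0 in each class, while on the right, with 10714 peaks per library, the day 5 points of the kept ends (35.8% and 33.6%) lie above the day 0 points (24.7% and 26.2%).

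The mRNA of PU.1 itself, listed as Sfpi1, was at 55.4 and 101 FPKM in untreated cells, against 2.37 and 3.55 FPKM in treated cells. All of the day 5 values lay below the day 0 values. The gene was looked up because of the PU.1 results, and its part in the peak counts was not tested.

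The authors' merged lists, built from both replicates of a day with the irreproducible discovery rate, held 14064 peaks on day 0 and 3530 on day 5. Peaks of these lists were at 729 kept ends on day 0 (30.2%, against 7.92% of all vertices) and at 305 on day 5 (12.7%, against 2.33%). Of the 729 ends, 280 also held a listed peak on day 5 and 449 did not. Thus 38.4% of kept ends with a day 0 peak also had one on the day 5 list (95% interval 34.9 to 42.0). Peaks were paired by end and not by position, so a wide end can hold different peaks on the 2 days. Over all vertices with a day 0 peak the share was 27.9% (27.0 to 28.8). It was 36.1% (29.2 to 43.6) for partner-changing ends, 33.7% (29.6 to 38.0) for ends of day 0 alone and 35.8% (31.7 to 40.1) for ends of day 5 alone. The intervals of these classes of contact ends overlap that of kept ends. The day 5 list held a peak at 25 kept ends that the day 0 list did not mark.

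Most ends with a merged day 0 peak held a peak in at least 1 day 5 library. The 729 such kept ends include the 280 that also held a merged day 5 peak. Of the 729, a day 5 replicate list held a peak at 93.3%, against 76.9% over all vertices. This share was 93.5% at partner-changing ends, 88.6% at ends of day 0 alone and 91.1% at ends of day 5 alone, so it was common to ends of contacts. The strongest merged day 0 peak of a kept end had a median score of 80.7 where the end also held a merged day 5 peak, and of 27.0 where it did not. The score is the authors' and lies close to the mean -log10 p of both replicates. A peak was found in all 4 libraries at 671 kept ends (27.8%) and in none at 540 (22.4%).

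At the 671 ends with a peak in all libraries, fold enrichment was lower on day 5. The medians were 13.2 and 13.3 before treatment, compared with 6.18 and 8.84 after it. Both day 5 values lay below both day 0 values at 470 ends (70.0%) and above them at 24 (3.58%). Over all 6181 vertices with a peak in every library the shares were 76.3% below and 2.04% above, so kept ends were near that background. Fold enrichment is the peak caller's value within each library and was not rescaled between libraries.

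Counted per contact, a merged day 0 peak was at both ends of 216 kept contacts, at 1 end of 791 and at neither end of 796. On day 5 the numbers were 38, 438 and 1327. Peaks at both ends were on 9.79% of contacts of day 0 alone and 12.0% of kept contacts on day 0, and on 1.72% of contacts of day 5 alone and 2.11% of kept contacts on day 5.

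The 38 contacts with a merged day 5 peak at both ends had a median of 9 tags on both days and a median span of 46.2 kb. Tags were higher on day 5 at 19, lower at 16 and equal at 3. The pair with the highest summed peak score joined chr6:83405027-83408440 and chr6:83455520-83458128 over 50.1 kb, with 7 and 8 tags. Its first end had PU.1 fold enrichments of 28.9 and 40.8 on day 0 and 42.6 and 72.4 on day 5, and its second end had 8.58 and 9.12 on day 0 and 14.5 and 15.8 on day 5. At both ends the day 5 values lay above the day 0 values, as at 24 of the 671 ends in all.

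The others of the 5 highest showed lower or mixed enrichment on day 5. At chr10:61965407-61972408 and chr10:62003059-62006893, with 5 and 7 tags, the second end went from 69.8 and 67.3 to 32.0 and 52.5. The pair chr11:62387582-62391097 and chr11:62415038-62423353 had 11 and 5 tags, and enrichment at the second end was 37.0 and 35.7 before treatment, then 25.5 and 38.6. Over 377 kb on chromosome 3, chr3:95084479-95088455 and chr3:95461982-95465410 had 8 and 4 tags. The pair chr3:89854298-89858169 and chr3:89880395-89886127 had 6 and 8 tags, and its first end was on the merged list on day 5 alone.

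In the 3 larger classes of PU.1 fate, the median change in tags was small, while single contacts moved both ways. Of 767 contacts with no merged peak at either end on either day, 46.3% had more tags on day 5. The share was 47.0% of the 560 contacts with a merged day 0 peak at 1 or 2 ends and none at either end on day 5. It was 51.7% of the 447 contacts with peaks on both days, whose median log2 tag ratio was 0.17 against 0 in the former classes. The quartiles of these 3 classes overlapped, with lower quartiles from -0.51 to -0.47 and upper quartiles from 0.58 to 0.60. The remaining 29 contacts had a merged peak on day 5 alone, and tags were higher on day 5 at 6 of them (20.7%) and lower at 14 (48.3%).

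Kept ends stood high among DNase sites on both days. For the strongest DNase score at an end, the medians were 292 and 228 before treatment, against 118 and 148 after it. The deposited score was lower on day 5 in the whole genome as well: the median log2 ratio of a day 5 to a day 0 library lay between -1.26 and -0.60 for kept ends and between -1.25 and -0.80 for all vertices. Ranks within each library were therefore used. The median kept end stood at percentile 96.9 and 97.4 of the sites before treatment and at percentile 99.05 and 98.8 after it, a difference of 1.79 (exact two-sided permutation p = 0.333, the smallest possible). Since the day 5 lists were longer, with 617606 and 518066 sites against 190924 and 252611, the difference shrank to 0.131 with 190924 top sites per library (exact p = 0.667). The medians then were 96.9 and 96.5 on day 0 and 96.9 and 96.8 on day 5, and the days overlapped.

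With equal lists, partner-changing ends stood level with kept ends, at 96.7 and 96.5 before treatment and 96.8 in both day 5 libraries, and vertices in contact on a single day stood lower. Ends of day 0 alone had medians of 94.6 and 94.5 on day 0 and 93.4 and 93.3 on day 5. Ends of day 5 alone had 94.3 and 93.9 on day 0 and 94.1 on both day 5 libraries. In each width class and library, kept ends had a higher median deposited score than ends of day 0 alone or day 5 alone. For example, at 2 to 3 kb in day 0 replicate 1 the median score was 295 for kept ends and 191 for all vertices. It was 248 for ends of day 0 alone and 242 for ends of day 5 alone. The partner-changing ends were lower than kept ends in that class, at 275, and higher at 1 to 2 kb, with 247 against 222.

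End by end, the DNase rank in both day 5 libraries was above both day 0 libraries at 934 kept ends (38.7%) and below both at 631 (26.2%), against 24.7% and 33.4% of all vertices. Ends of day 0 alone went the other way, with 25.8% above and 40.1% below. Ends of day 5 alone had 36.2% above and 26.3% below, near the kept ends, and partner-changing ends had 37.0% above and 26.9% below.

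Both partners of a contact were usually open. In the 4 libraries, both ends stood above percentile 90 of all sites for 83.1% and 90.1% of kept contacts on day 0 and for 97.7% and 96.9% on day 5, where the lists were longer. Counted as single vertices, 88.6% and 93.4% of kept ends stood that high on day 0 and 98.4% and 97.8% on day 5. The shares of all vertices were 16.1% and 22.9% on day 0 and 42.8% and 38.0% on day 5. With equal lists no rise was seen, and the share of kept contacts was 83.1% and 80.6% before treatment, then 82.3% and 80.4%. Contacts of day 0 alone had 70.6% and 69.5% on day 0, and contacts of day 5 alone 67.0% and 67.1% on day 5. The stronger end had a median of 1.58 to 1.67 times the score of the weaker end. Contacts whose ends lost less DNase score gained tags more often. Ordered by the mean log2 change in DNase score at their ends and split into 4 classes of equal size, 40.5% of contacts had more tags on day 5 in the lowest class, then 45.1% and 49.8%, and 54.7% in the highest. Spearman's rho was 0.109 over the 1793 contacts with a DNase score at both ends in every library, which share ends and libraries, and no p is given.

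Nearly all kept ends carried footprints, as did most ends of other contacts. At least 1 footprint of the pooled list of each day overlapped 2356 ends on day 0 (97.7%, against 41.1% of all vertices) and 2338 on day 5 (97.0%, against 37%). On day 0 the share was 97.2% at partner-changing ends, 89.1% at ends of day 0 alone and 92.1% at ends of day 5 alone. The median kept end had 9 footprints on day 0 and 10 on day 5. Per kilobase of vertex, kept ends held 3.07 on day 0 and 3.23 on day 5. Ends of day 0 alone held 2.30 and 2.31, and ends of day 5 alone 2.32 and 2.61. Partner-changing ends held 2.84 and 3.06. The kept ends were densest in each width class, by the least margin over the partner-changing ends. At 1 to 2 kb they held 3.10 and 3.502 per kilobase, against 2.87 and 3.20 for partner-changing ends, 2.09 and 2.12 for day 0 alone and 2.19 and 2.63 for day 5 alone. At 4 kb and more the values were 2.99 and 3.02 for kept ends, 2.57 and 2.54 for partner-changing ends, 2.09 and 2.01 for day 0 alone, and 2.07 and 2.23 for day 5 alone.

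**Figure D5:**
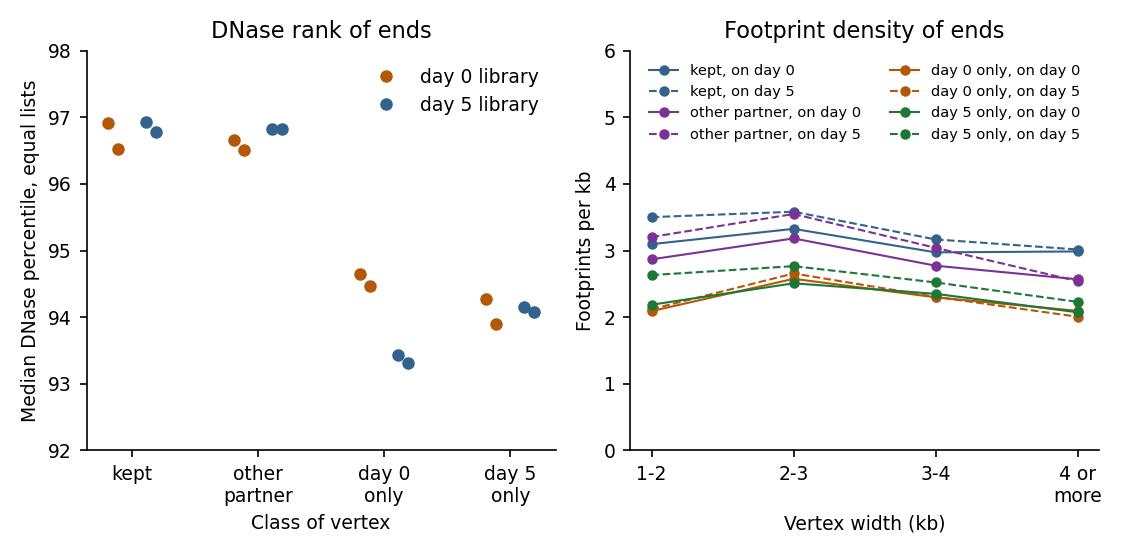
Left, median percentile of the strongest DNase site at ends of kept contacts, partner-changing ends and ends of day 0 alone or day 5 alone in each library, with 190924 top sites per library (the axis starts at 92). Right, footprints per kilobase of vertex by vertex width, on day 0 (solid) and day 5 (dashed); on each day the kept ends lie highest in each width class, at 3.10 on day 0 and 3.502 on day 5 among vertices of 1 to 2 kb.

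A lower footprint score marks a stronger footprint. The median of the lowest score at a kept end was -238 on day 0 and -294 on day 5. Of 2329 kept ends with a footprint on both days, 1627 (69.9%) had a lower score on day 5 and 576 (24.7%) a higher one, against 60.1% and 38.2% of all such vertices. For ends of day 0 alone the lower share was 60.7%, and for ends of day 5 alone and partner-changing ends it was 67.8% each. Footprints were more numerous on day 5 at 1230 kept ends and fewer at 786, which is 52.0% and 33.2% of the 2365 ends with any footprint, against 28.5% and 30.8% of all such vertices and 50.8% and 28.03% of partner-changing ends. The lists end at a score of -1000, which 261 kept ends reached on at least 1 day, so the strongest footprints could not be ranked among themselves. The list of each day pools both replicates, so these counts have no replicate check.

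Where tags changed at least 2-fold, footprint numbers tended to move the same way. Summed over both ends, footprints were more numerous on day 5 at 69.0% of the 232 contacts whose tags rose at least 2-fold and fewer at 23.3%. At the 195 contacts whose tags fell at least 2-fold the shares were 41.5% and 54.9%, and over all 1803 contacts they were 57.6% and 34.3%. This relation was looked for after the extremes were seen, contacts share ends, and no p is given.

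Both ends had a footprint on both days in 1714 of the 1803 kept contacts. On day 0, 96.7% of kept contacts had footprints at both ends, against 90.3% of contacts of day 0 alone, and on day 5, 95.6% against 92.4% of contacts of day 5 alone. Of the 24602 day 0 footprints at kept ends, 79.1% overlapped a day 5 footprint, compared with 74.3% of the whole day 0 list. Of the 25871 day 5 footprints, 74.4% overlapped a day 0 footprint, compared with 72.5% of the whole list. Footprints present on both days were stronger: at kept ends the median score of a day 0 footprint was -45.2 where it recurred and -24.4 where it did not.

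The authors also deposited lists on vertices widened to 3 kb. Of the 1803 kept contacts, 1785 joined the corresponding wider vertices in the day 0 list, 1764 in the day 5 list and 1761 (97.7%) in both. The 15 that were in neither wider list had both ends inside 1 wider vertex, so they could not be listed as a pair. Of contacts listed on day 0 alone at 1 kb, 951 (32.2%) were in the day 5 list at 3 kb, and 1125 (40.3%) of those of day 5 alone were in the day 0 list at 3 kb. The 3 kb lists were longer, with 14234 pairs within chromosomes on day 0 and 10520 on day 5, against 4754 and 4597 at 1 kb. A wider vertex can also take in tags of neighbouring regions. Being kept thus depends on vertex width, but a match at 3 kb does not show that the same narrow contact was present on both days. The shares of 32.2% and 40.3% were looked up in lists of unequal length.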

How the data were processed

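The labels name 18 samples of MEL cells, 2 replicates per day for each assay and 1 input per day, and the assays used here are those of the report. Contacts, sites, peaks and footprints are on mm9, per the submitters' processing notes, which also name Bowtie 1.0.0 and MACS2 2.0.10 for PU.1 ChIP-seq. For PU.1 the authors deposited per library each peak's fold enrichment (a ratio over control) and its −log10 p, and per day a merged list with a score and an irreproducible discovery rate (a p-value-like measure, per the file headers). DNase sites, footprints and contacts carry a deposited score whose formula no label or header states, and RNA values are the authors' deposited FPKM. The number of sequenced tags per library is unknown.

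Pairs were matched by vertex name, and a feature was counted at a vertex from 1 base of overlap (bedtools 2.31.1, pandas 2.3.3, SciPy 1.17.1). The strongest DNase site or PU.1 peak stands for a vertex. DNase and PU.1 summaries were compared between days over 2 libraries each by an exact two-sided permutation test. Wilson intervals cover counting error only. Recovery of tags was tried on simulated scores made with the same formula, where 5000 of 5000 were recovered. This checks the calculation only, not the reading of the deposited score. Of 5000 random scores, 104 also came out whole to within 0.01. Contacts and vertices were named by rank: the 5 with the highest lower score, 3 each with the largest rise, the largest fall, the longest and the shortest span, the 5 with most PU.1 at both ends, and the 3 vertices with most kept contacts. The 3 ends with the lowest footprint score were not named, because 261 ends tie. The members, lists and rules were chosen with earlier results of these data known. A planned RNA comparison of genes at kept ends and a motif search need mm9 gene positions or sequence and were not run.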

Additional observations from a re-analysis of the deposited data

Results flagged for a closer look

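Besides the contacts within chromosomes, 4 pairs of vertices on different chromosomes were in both lists, of 22 such pairs on day 0 and 21 on day 5; they were noted because they belong to no comparison of the report. The deposited scores of these 4 pairs were negative on both days, a sign that no label explains, and their tags were taken from the score without its sign. The pair with most tags joined chr19:35377372-35379316 and chr11:114527735-114532596, with 109 tags on day 0 and 76 on day 5, 185 in all. The same vertex of chromosome 19 was also paired with the neighbouring chr11:114533191-114536049, with 18 and 10 tags, 28 in all. A pair of chr17:29632981-29641302 and chr2:163467099-163472962 had 28 and 27 tags, 55 in all, and both of its vertices are ends of kept contacts within their own chromosomes. The pair of chrX:44888997-44889996 and chr1:194581846-194583890 had 5 and 6 tags, 11 in all.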

How the results depend on the processing

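Of 1803 kept contacts, 849 remained when each list was held to scores above its median. The 3 kb lists, which were longer, shared 5364 pairs (37.7% of the day 0 list and 51.0% of the day 5 list). Allowing ends within 2 kb gave 1847. The share of contacts with more tags on day 5 was 47.4% by score, 47.4% by scaled tags (added after seeing the data), 46.8% with 1 contact per connected group and 42.2% by rank. The median span was 28.6 kb with 1 contact per group. The day 5 minus day 0 difference in kept ends with a PU.1 peak, -23.4 percentage points, turned to 9.23 with the same number of top peaks in each library. Without 1 replicate it ran from -30.4 to -16.3. With 250 bases of overlap it was -35.1 (37.6% and 44.3% on day 0, 3.73% and 7.92% on day 5). Median peak widths were 247 and 223 bases on day 0 and 141 and 145 on day 5, so most peaks could not meet that rule. The value of -35.1 thus depends on peak width as well as on peak presence. The DNase difference of 1.79 percentiles turned to -127.5 in units of the deposited score, and ran from 1.56 to 2.02 without 1 replicate. With a replicate block, added after seeing the data, the differences were the same, -23.4 and 1.79, each with an exact p of 0.5, the smallest that 2 pairs allow; the labels do not say that equal replicate numbers share a culture. At a footprint score of -40 or lower, 94.2% of kept ends had a footprint on day 0 and 93.4% on day 5. The alternatives planned for the RNA comparison were not run. With no listed contact under 4 tags and 1 list per day, contacts near this limit cannot be called lost or gained.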
